A study of Mus musculus with 6 samples.

Results

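The 10 genes described here encode early factors of mesendoderm and the primitive streak, namely T (Brachyury), Eomes, Mesp1, Mixl1, Evx1, Cdx1, Gsc, Lhx1, Cer1 and Hhex. They were chosen by name from the 23999 gene symbols of the deposited table, and all 10 were found. During gastrulation, epiblast cells pass through the primitive streak under NODAL, WNT and BMP signals and become mesoderm or definitive endoderm. T-box and homeobox factors carry out this step, and pluripotent mouse embryonic stem cells normally hold their genes at low levels. Several of them, among them Gsc, Lhx1, Cer1, Hhex and Eomes, are also used in the anterior visceral endoderm, an extraembryonic tissue.

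Polyadenylated RNA came from mouse embryonic stem cells whose labels name a floxed element called -5 and an exogenous mNanogV5, a tagged copy of mouse Nanog. They were kept for 6 days with 4-hydroxytamoxifen (4OHT, n = 3) or with ethanol as vehicle (n = 3). Both groups carried the floxed element and the exogenous copy. The labels name neither the recombinase nor the promoter that drives the copy, and do not say whether replicates were separate cultures or how many clones were used, so p-values measure the spread between these libraries only. The totals were 55194644, 515388 and 31307423 counts for 4OHT replicates 1 to 3, and 52250671, 20030423 and 26370388 for vehicle replicates 1 to 3. A single read in the shallow 4OHT replicate 2 was worth 1.91 CPM (counts per 1e6 counts of the library, after TMM scaling), against 0.0183 to 0.0498 CPM in the other libraries. Nanog, the gene whose enhancer the series title names, stood at 181 ± 11.5 CPM in 4OHT and 644 ± 14.5 CPM in vehicle cells (SD, n = 3 each); the table does not separate the tagged copy from the endogenous gene. All 10 listed embryonic stem cell markers were detected and tested. Their summed levels, which include Nanog, were 6997 to 7371 CPM in 4OHT and 7540 to 7720 CPM in vehicle libraries. In edgeR (adjusted p under 0.05) Sox2 was higher in 4OHT, Nanog and Pou5f1 were lower, and the other 7 did not pass. Of all tested genes 22.4% passed.

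Together the 10 genes took 22.1, 40.1 and 22.5 CPM in 4OHT replicates 1 to 3, and 20.5, 20.4 and 22.5 CPM in vehicle replicates 1 to 3. The 40.1 CPM of 4OHT replicate 2 rest on 21 reads over all 10 genes. The other 5 libraries lay close together whatever the treatment. Of the 10 genes, 6 passed the filter on low counts, which asked for about 0.347 CPM in at least 3 libraries, and T, Mesp1, Lhx1 and Cer1 did not. Evx1 passed through its 3 vehicle libraries alone. Among the tested genes 2 of 6 passed the edgeR quasi-likelihood test at an adjusted p of 0.05, where 22.4% of all 14458 tested genes passed (11.9% higher and 10.5% lower in 4OHT). The filter could keep Evx1 only through the group where it is high, so the count is a description. Gsc was higher in 4OHT cells and Evx1 was lower. In bulk samples a change in the number of expressing cells and in RNA per cell cannot be told apart. The median log2 fold change of the 6 genes was 0.14, as a description, beside -0.0026 over all tested genes.

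**Figure D1:**
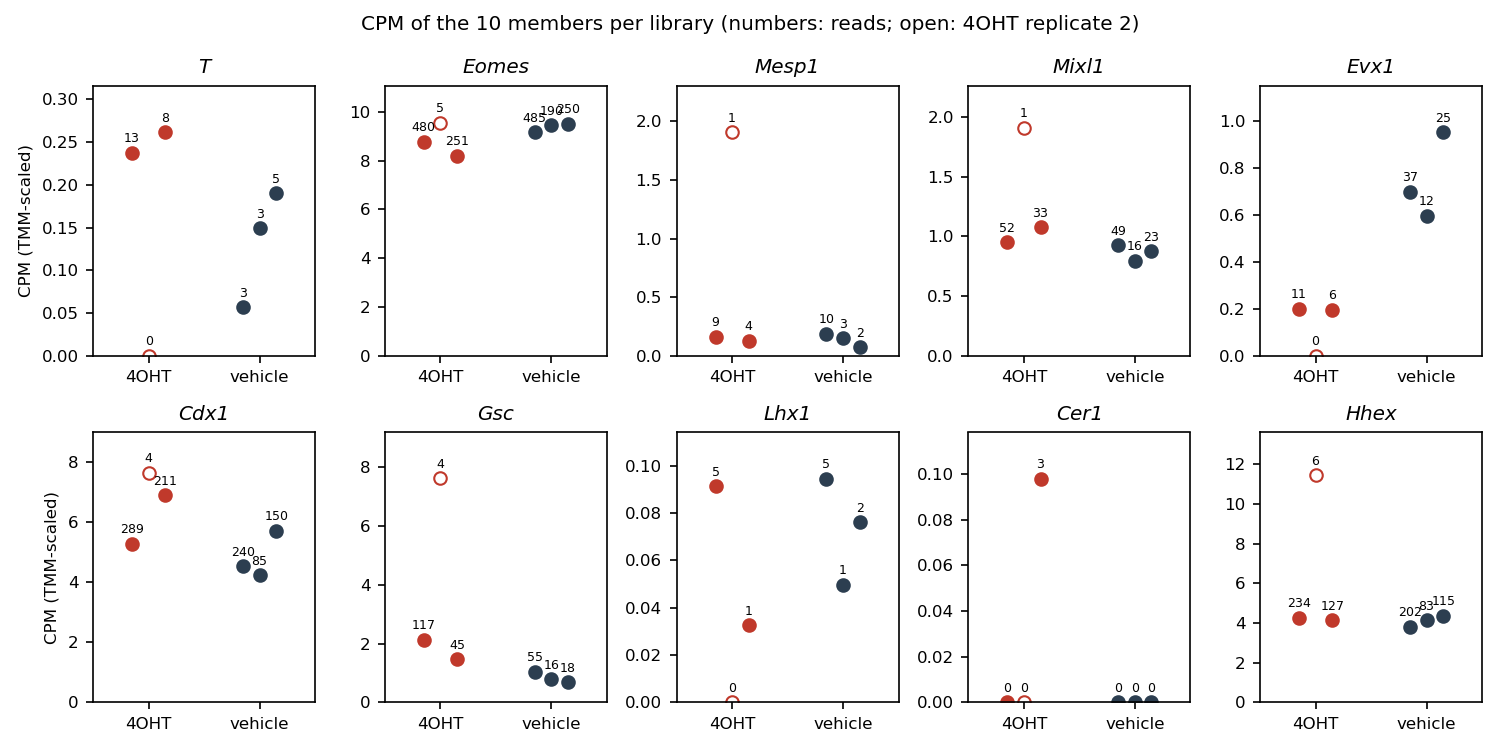
TMM-scaled CPM of the 10 genes in each library, with 4OHT left and vehicle right in each panel; each point is 1 library, the number above it is its read count, and the open point is 4OHT replicate 2. Evx1 is lower and Gsc higher in all 3 4OHT libraries, and the open points rest on 0 to 6 reads.

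Levels per exon length were low and spread widely within the set. In 4OHT cells, with the 3 libraries pooled, the order in RPKM (reads per kilobase of exon and per 1e6 counts) was Cdx1 (3.35), Eomes (2.06), Gsc (1.52), Hhex (0.845), Mixl1 (0.437), Mesp1 (0.128), T (0.106), Evx1 (0.0688), Cer1 (0.0201) and Lhx1 (0.0172). Of the neighbours in this order the library ranges of Cdx1 and Eomes alone did not overlap, with the shallow 4OHT replicate 2 included. In vehicle cells the pooled order was Cdx1 (2.73), Eomes (2.24), Hhex (0.797), Gsc (0.707), Mixl1 (0.386), Evx1 (0.259), Mesp1 (0.119), T (0.0479), Lhx1 (0.0198) and Cer1 with no read. There the ranges of Hhex and Gsc overlapped, as did those of Mesp1 and T, and those of the other neighbours did not. In the pooled order Gsc and Hhex changed places between the groups, but their library ranges overlapped in both. Evx1 stood below Mesp1 and T in 4OHT cells. Its library range there overlapped that of T but not that of Mesp1. Exon bases are merged over all annotated transcripts, 5056 in 2 merged exons for Hhex and 1268 for Gsc. The order of genes thus depends on these length models. On the same scale Pou5f1, which encodes the pluripotency factor OCT4, had 485 in 4OHT and 571 in vehicle cells. By mean CPM, Eomes lay above 37.1% of the tested genes and Evx1 above 3.2%.

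**Figure D2:**
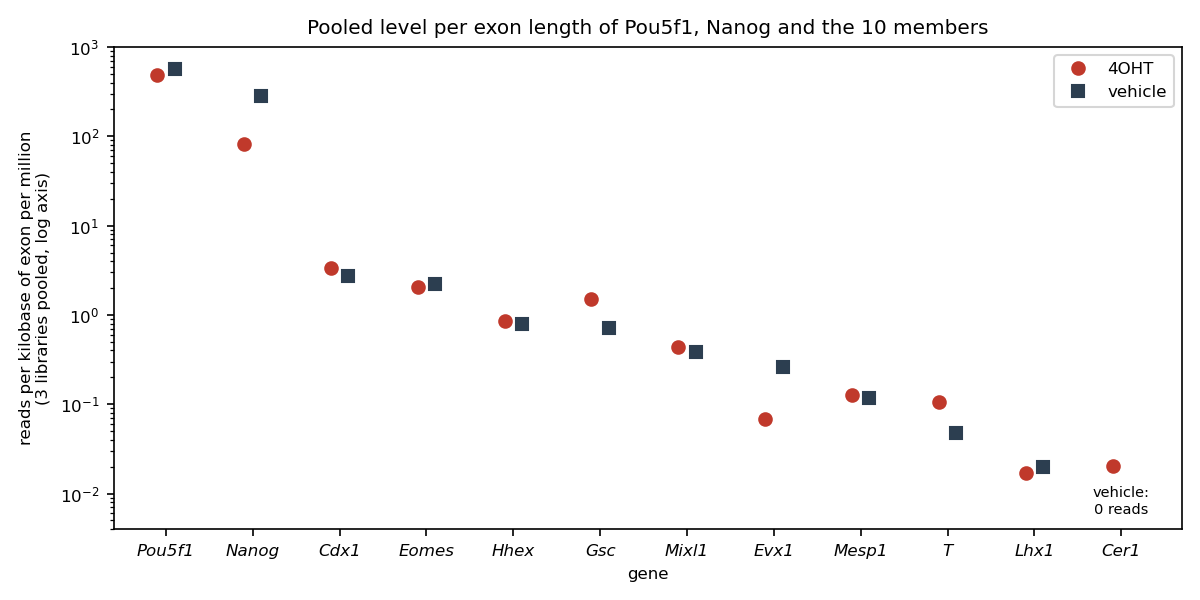
Pooled level per exon length on a log axis (RPKM) of Pou5f1, Nanog and the 10 genes, with circles for 4OHT and squares for vehicle cells. The 10 genes run from 3.35 (Cdx1, 4OHT) down to 0 reads (Cer1, vehicle), far below Pou5f1 at 485 and 571.

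Upstream sequences of 8 of the 10 genes could be taken from RefSeq (GRCm38.p6; the submitters' processing notes name mm9 for the series), as the 250 bases before the annotated start. CpG dinucleotides, which cluster at the promoters of many developmental regulators, numbered 32 in Hhex, 26 in Lhx1, 22 in Gsc, 14 in T, 10 in Evx1, 8 in Eomes, 5 in Cer1 and 2 in Mesp1. The median over all 32851 promoter entries was 6, and 14.8% of entries had at least as many as Gsc. The windows of Gsc and Evx1 are shown because these genes passed the test, and that of Cer1 because it was the least detected. They are written 5′ to 3′ along the strand of the gene, with CpG in capitals. The Gsc window is chr12:104473237-104473486 (minus strand), that of Evx1 chr6:52313248-52313497 (plus strand) and that of Cer1 chr4:82885152-82885401 (minus strand).
Gsc: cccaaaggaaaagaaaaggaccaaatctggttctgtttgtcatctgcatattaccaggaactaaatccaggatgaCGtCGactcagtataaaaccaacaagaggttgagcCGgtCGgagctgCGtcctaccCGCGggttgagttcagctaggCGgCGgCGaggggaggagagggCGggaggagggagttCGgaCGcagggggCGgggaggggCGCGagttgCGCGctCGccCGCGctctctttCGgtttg
Evx1: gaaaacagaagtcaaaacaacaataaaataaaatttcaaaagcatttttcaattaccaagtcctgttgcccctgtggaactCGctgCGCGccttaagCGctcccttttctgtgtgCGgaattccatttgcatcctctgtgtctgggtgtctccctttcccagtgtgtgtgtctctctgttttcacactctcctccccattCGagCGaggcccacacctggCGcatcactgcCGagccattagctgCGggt
Cer1: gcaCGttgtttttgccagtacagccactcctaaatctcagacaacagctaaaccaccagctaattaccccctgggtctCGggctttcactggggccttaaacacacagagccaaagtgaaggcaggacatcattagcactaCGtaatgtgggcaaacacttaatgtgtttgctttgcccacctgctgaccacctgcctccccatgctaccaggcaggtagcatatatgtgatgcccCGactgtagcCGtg

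The capitals are dense in the Gsc window, fewer in that of Evx1 and sparse in that of Cer1. A set of 5 motifs was searched on both strands of these 250 bases. CTTTGNT, a TCF/LEF motif, was found in Eomes and Mesp1 and in 16% of all entries. A paired-class homeodomain palindrome (facing TAAT cores 3 bases apart) was found in Eomes and in 0.463% of all entries, and the homeodomain core TAATTA in Cer1 and in 4.84%, with no overlap between motifs in these genes. TGTNNATT, a FOXH1 motif, and GGTGTGA, a T-box motif, were in none of the 8 windows and in 10.9% and 3.33% of all entries. These matches describe the letters only.

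The T-box genes and Mesp1, factors of streak and nascent mesoderm, gave no call. Eomes, a T-box factor needed for definitive endoderm and also used in trophoblast, had 480, 5 and 251 reads in 4OHT replicates 1 to 3, and 485, 190 and 250 in vehicle replicates 1 to 3. As levels these were 8.77, 9.55 and 8.2 CPM in 4OHT, and 9.17, 9.46 and 9.52 CPM in vehicle cells. The groups overlapped, and the 2 deep 4OHT libraries were the lowest of the 6. This gave a log2 fold change of -0.13 with SE 0.10 and a 95% interval of -0.34 to 0.08 (edgeR adjusted p = 0.381). This interval is the narrowest among the tested members. An antisense gene shares 2.84% of the exon bases of Eomes, and the use of strand in counting is not given in the sources used here.

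T, the T-box factor that marks the streak and the notochord, had 13, 0 and 8 reads in 4OHT replicates 1 to 3, and 3, 3 and 5 reads in vehicle replicates 1 to 3. These counts equal 0.237, 0 and 0.261 CPM in 4OHT, and 0.0567, 0.149 and 0.19 CPM in vehicle cells. Both deep 4OHT libraries were above all vehicle libraries, and the shallow one, where 0.0692 reads would have matched the vehicle level, had none. Pooled over libraries, T had 21 reads in 4OHT (0.244 CPM, exact Poisson 95% interval 0.151 to 0.374) and 11 reads in vehicle cells (0.111 CPM, 0.0553 to 0.198). Such intervals cover counting error only. In an edgeR fit without the filter, where 17.9% of 20396 genes passed, its log2 fold change was 1.10 (95% interval -0.00072 to 2.19, adjusted p = 0.177), so no difference was detectable at this depth.

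Mesp1, a basic helix-loop-helix factor of the earliest cardiac mesoderm, had 9, 1 and 4 reads in 4OHT replicates 1 to 3, and 10, 3 and 2 reads in vehicle replicates 1 to 3. The groups overlapped. The fit without the filter gave a log2 fold change of 0.12 (95% interval -1.01 to 1.26, edgeR adjusted p = 0.926), wide enough to hold a doubling in either direction. Its paralogue Mesp2, which acts in somite formation, had 2.79 ± 0.893 CPM in 4OHT and 2.65 ± 0.272 CPM in vehicle cells and did not pass (edgeR adjusted p = 0.417).

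Among the streak and posterior homeobox genes, Evx1 fell to 26.8% of its vehicle level. Evx1, a homeobox factor of the posterior streak, had 11, 0 and 6 reads in 4OHT replicates 1 to 3, and 37, 12 and 25 reads in vehicle replicates 1 to 3. As levels these were 0.201, 0 and 0.196 CPM in 4OHT, and 0.699, 0.597 and 0.952 CPM in vehicle cells. All 4OHT libraries lay below all vehicle libraries. Of the 6 tested genes 3 (Evx1, Gsc and Mixl1) had groups that did not overlap, beside 31.3% of all tested genes. The filter kept Evx1 only through its vehicle libraries, so this count is a description too. The 0 of 4OHT replicate 2 carries little, since the vehicle level would give 0.393 reads there. On the log2 scale Evx1 changed by -1.90 with SE 0.35 and a 95% interval of -2.63 to -1.16 (edgeR adjusted p = 0.000464), and by -1.89 without that library (edgeR adjusted p = 0.00236). Since Evx1 passed the filter through the vehicle group alone, its value in the fit without the filter is given beside these: -1.90, with a 95% interval of -2.65 to -1.14 and an edgeR adjusted p of 4.36e-05. The exact two-sided permutation test of the 6 CPM values gave p = 0.1, the smallest that 3 against 3 allows.

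The antisense gene Evx1os, on the opposite strand, shares 2.54% of the Evx1 exon bases. It had 2, 0 and 1 reads in 4OHT replicates 1 to 3, and 5, 3 and 7 reads in vehicle replicates 1 to 3. Its low counts were thus also lower in the 4OHT libraries, and without strand reads in the shared bases cannot be assigned. Among 14452 tested genes outside the set, the patterns nearest to Evx1 over the 6 libraries were those of 1700016D06Rik, Ncam1 and Alox12b. Their root-mean-square distances from Evx1 were 0.19, 0.22 and 0.23 on the log2 CPM scale, each gene centred on its vehicle mean. Ncam1, a neural cell adhesion molecule, had a log2 fold change of -1.80 at a far higher level, 5.02 CPM in 4OHT and 22.7 CPM in vehicle cells.

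Mixl1, a paired-type homeobox factor of the streak, had 52, 1 and 33 reads in 4OHT replicates 1 to 3, and 49, 16 and 23 reads in vehicle replicates 1 to 3. Its levels were 0.95, 1.91 and 1.08 CPM in 4OHT, and 0.926, 0.797 and 0.876 CPM in vehicle cells. The groups did not overlap, but the margin between 0.95 and 0.926 CPM was small and the highest value was a single read. The log2 fold change of 0.19 (SE 0.23, 95% interval -0.30 to 0.68) did not pass (edgeR adjusted p = 0.614).

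Cdx1, a caudal-type homeobox factor of posterior patterning and a target of WNT and retinoic acid signals, had the highest level per length of the set. It had 289, 4 and 211 reads in 4OHT replicates 1 to 3, and 240, 85 and 150 reads in vehicle replicates 1 to 3. These were 5.28, 7.64 and 6.89 CPM in 4OHT, and 4.54, 4.23 and 5.71 CPM in vehicle cells, so that vehicle replicate 3 lay within the 4OHT range. Its log2 fold change of 0.32 had SE 0.14 and a 95% interval of 0.02 to 0.62, with an unadjusted p of 0.0399 and an edgeR adjusted p of 0.126. Without 4OHT replicate 1 it was 0.52 with an edgeR adjusted p of 0.00657. Of its paralogues, Cdx2 had 12 reads in 4OHT and 14 in vehicle cells over all libraries, and Cdx4 had 48 reads in 4OHT and 29 in vehicle cells with an edgeR adjusted p of 0.055.

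Among the anterior genes Gsc rose 2.17-fold. Gsc, a homeobox factor of the anterior streak and the organizer, had 117, 4 and 45 reads in 4OHT replicates 1 to 3, and 55, 16 and 18 reads in vehicle replicates 1 to 3. Its levels were 2.14, 7.64 and 1.47 CPM in 4OHT, and 1.04, 0.797 and 0.685 CPM in vehicle cells. All 4OHT libraries lay above all vehicle libraries. In 4OHT replicate 2 the vehicle level would give 0.44 reads, and 4 were counted, which sets the high mean of that group (3.75 ± 3.38 CPM in 4OHT, 0.84 ± 0.181 CPM in vehicle cells; SD, n = 3 each).

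On the log2 scale Gsc changed by 1.12 with SE 0.26 and a 95% interval of 0.58 to 1.65 (edgeR adjusted p = 0.00314). Without 4OHT replicate 2 it was 1.07 (edgeR adjusted p = 0.00762), so the fold change did not rest on those 4 reads. The exact two-sided permutation p was 0.1, again the smallest possible. The nearest patterns to Gsc were those of Tc2n, Ccdc169 and Ephb6, at distances of 0.21, 0.22 and 0.22. Ephb6, an Eph receptor, had a log2 fold change of 1.10, with mean levels of 4.95 CPM in 4OHT and 1.26 CPM in vehicle cells. These means lie further apart than that fold change, which follows the deep libraries more closely. The distances count the shallow 4OHT replicate 2 like any other library.

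**Figure D3:**
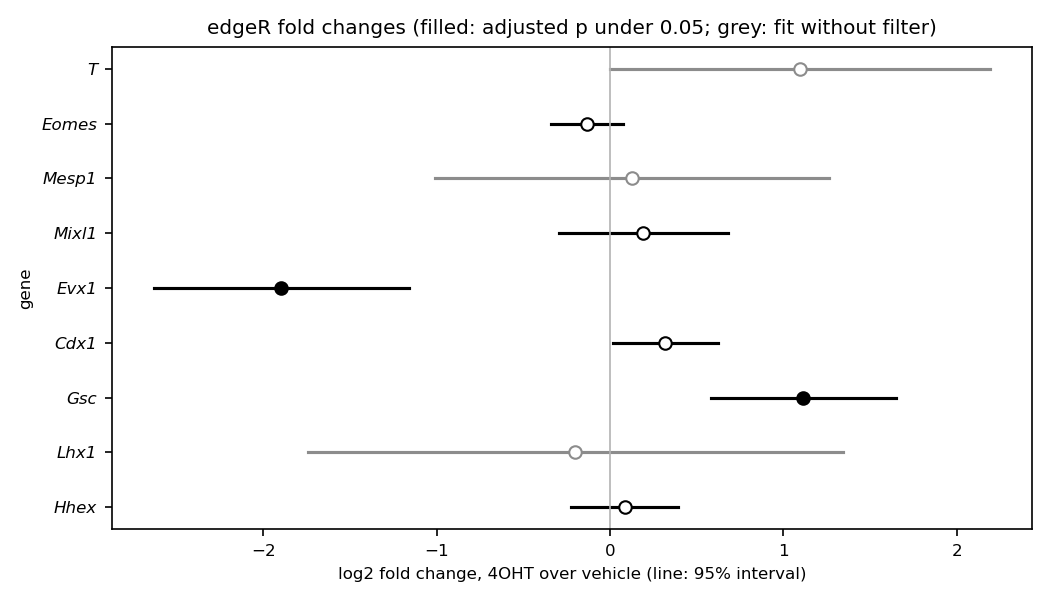
Log2 fold change of 4OHT over vehicle with its 95% interval for 9 of the 10 genes, filled where the edgeR adjusted p passed and grey for genes tested in the fit without a filter only. Gsc at 1.12 and Evx1 at -1.90 have intervals far from 0 and that of Cdx1 begins at 0.02, while Lhx1, Mesp1 and T have wide ones; Cer1 is left out for its 0 reads in vehicle cells.

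The calls of Gsc and Evx1 depended on the tool and on the shallow library. With all 6 libraries DESeq2 called neither (1 of the 10 had an unadjusted p under 0.05), with an adjusted p of 0.141 for Gsc and an unadjusted p of 0.0734 for Evx1, which its own filter left without an adjusted p. In that fit 6.87% of 13673 genes passed. Without 4OHT replicate 2 DESeq2 called both, with adjusted p of 0.0239 for Gsc and 0.00942 for Evx1, where 15% of 15650 genes passed. With limma-voom and quantile normalization the adjusted p were 0.066 for Gsc and 0.0714 for Evx1, where 14.4% of 14458 genes passed and 2 of the 6 had an unadjusted p under 0.05.

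**Figure D4:**
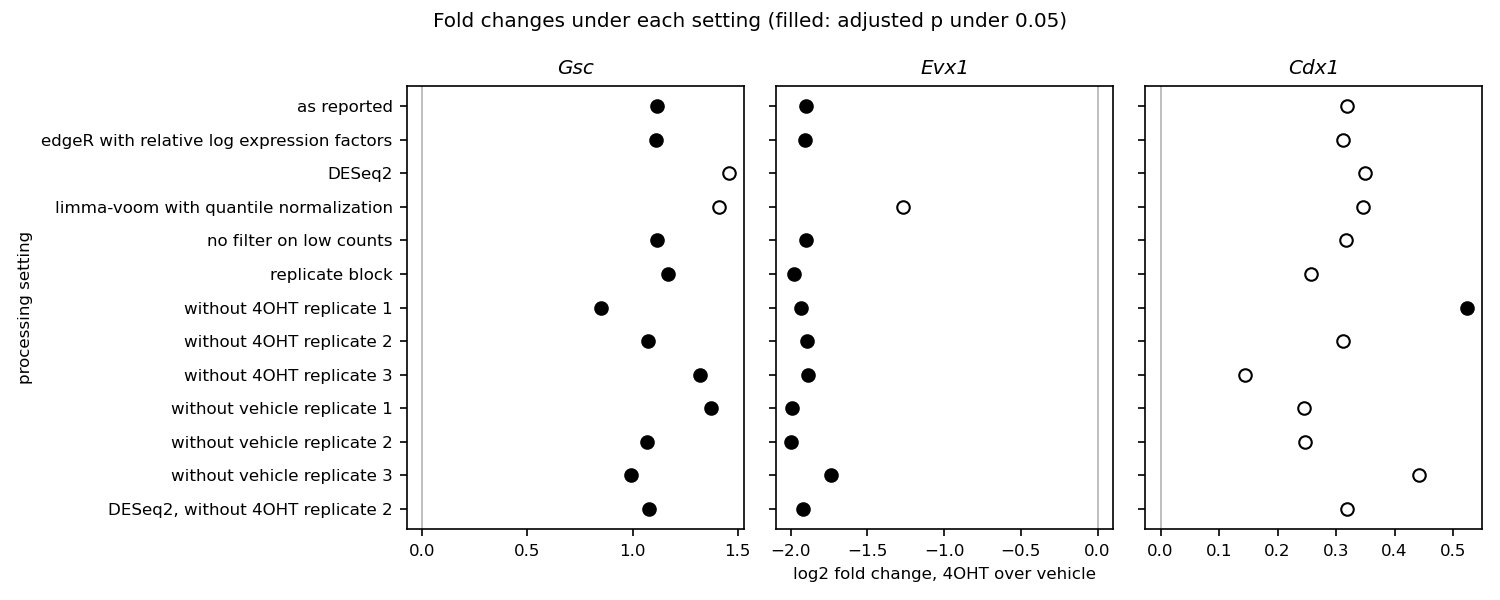
Log2 fold change of Gsc, Evx1 and Cdx1 under each processing setting, filled where the adjusted p passed 0.05. Gsc stays above 0 and Evx1 below 0 throughout, both lose the call in limma-voom and Gsc also in DESeq2 with all libraries, and Cdx1 passes without 4OHT replicate 1 alone; DESeq2 with all libraries gave Evx1 no adjusted p.

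Hhex, a homeobox factor of the anterior visceral and definitive endoderm, did not pass. It had 234, 6 and 127 reads in 4OHT replicates 1 to 3, and 202, 83 and 115 reads in vehicle replicates 1 to 3. The levels were 4.28, 11.5 and 4.15 CPM in 4OHT, and 3.82, 4.13 and 4.38 CPM in vehicle cells, and the groups overlapped. Both deep 4OHT libraries lay within the vehicle range. Its log2 fold change of 0.08 had SE 0.15 and a 95% interval of -0.23 to 0.39 (edgeR adjusted p = 0.746).

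Lhx1, a LIM-homeobox factor of the organizer and the anterior visceral endoderm, and Cer1, a secreted antagonist of NODAL and BMP ligands, were close to absent from the counts. Lhx1 had 5, 0 and 1 reads in 4OHT replicates 1 to 3, and 5, 1 and 2 reads in vehicle replicates 1 to 3. Its log2 fold change without the filter was -0.20 with a 95% interval of -1.74 to 1.35 (edgeR adjusted p = 0.907). Cer1 had 3 reads, all in 4OHT replicate 3, and 0 reads in the vehicle libraries, which allows up to 0.0302 CPM over the pooled vehicle counts. No fold is given for it, since 3 reads are at the limit that a count of 0 allows.

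Of 12 listed streak signals and receptors that act upstream of these genes 9 were tested, 2 rose (Nodal and Acvr2b) and 1 fell (Acvr1b), where 22.4% of all tested genes passed. The median log2 fold change of the 9 was 0.02. Nodal, the ligand gene, had 109 ± 5.65 CPM in 4OHT and 83.6 ± 1.13 CPM in vehicle cells, a log2 fold change of 0.34 (adjusted p = 0.000214 in edgeR and 0.00252 in DESeq2). The type II receptor gene Acvr2b rose by a log2 fold change of 0.29 and the type I receptor gene Acvr1b fell by 0.28 on the log2 scale (edgeR adjusted p = 0.0171 and 0.00791). Tdgf1, the NODAL co-receptor, had 741 ± 56.3 CPM in 4OHT and 742 ± 45.1 CPM in vehicle cells. The streak ligand genes Wnt3a, Wnt8a and Fgf8 were too low to test, with 19, 29 and 24 reads in 4OHT and 38, 20 and 12 reads in vehicle cells. DESeq2 with all libraries called Nodal alone in this list, with adjusted p of 0.426 for Acvr2b and 0.241 for Acvr1b.

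Of the 14 effectors and direct readouts of these signals 4 rose (Dkk1, Lefty1, Lefty2 and Foxh1) and 3 fell (Smad7, Lef1 and Sp5). Over all tested genes 11.9% rose and 10.5% fell. The median log2 fold change of the 14 was 0.01. The NODAL targets and antagonists Lefty1 and Lefty2 had log2 fold changes of 0.64 and 0.39 (edgeR adjusted p = 1.45e-05 and 0.00378), and the inhibitory SMAD gene Smad7 had -0.60 (edgeR adjusted p = 1.7e-06). Foxh1, the DNA-binding partner of SMADs downstream of NODAL, rose to 23.2 ± 3.59 CPM in 4OHT, against 16.7 ± 0.838 CPM in vehicle cells (log2 fold change 0.37, edgeR adjusted p = 0.00585). WNT readouts went both ways. Dkk1, a secreted WNT antagonist and WNT target, had 98 reads in 4OHT and 7 reads in vehicle cells (log2 fold change 4.00, edgeR adjusted p = 5.22e-06). Lef1, a nuclear effector and target of WNT signals, fell to 2.26 ± 0.542 CPM in 4OHT, against 5.12 ± 1.37 CPM in vehicle cells (log2 fold change -1.01, edgeR adjusted p = 0.000583). The WNT target Sp5 had a log2 fold change of -1.09 (edgeR adjusted p = 0.00506), and Axin2, another, did not pass (-0.25, edgeR adjusted p = 0.144). DESeq2 with all libraries called Dkk1 and Lefty1 higher and Smad7 lower, with adjusted p of 0.229 for Foxh1, 0.237 for Lefty2, 0.0813 for Lef1 and 0.675 for Sp5.

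The genes of epithelial to mesenchymal transition, which streak cells undergo, went both ways: of 10 tested 2 rose and 4 fell, with a median log2 fold change of -0.27, where 11.9% of all tested genes rose and 10.5% fell. The repressors of E-cadherin Snai1 and Zeb1 rose, Snai1 to 6.89 ± 0.821 CPM in 4OHT, against 3.92 ± 0.372 CPM in vehicle cells (log2 fold change 0.74, edgeR adjusted p = 0.000259), and Zeb1 with a log2 fold change of 0.49. The epithelial genes Cdh1, Epcam and Crb3 fell, with log2 fold changes of -0.27, -0.39 and -1.48. Vim, a mesenchymal intermediate filament gene, also fell, with 185 ± 22.8 CPM in 4OHT and 265 ± 8.04 CPM in vehicle cells. Cdh2, which encodes N-cadherin, did not pass (edgeR adjusted p = 0.2). DESeq2 with all libraries called 0 of this list higher and 4 lower, with an adjusted p of 0.136 for both Snai1 and Zeb1.

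Of 16 genes of later mesoderm and posterior identity 7 were tested, 4 rose and none fell, beside the same 11.9% and 10.5% over all tested genes, with a median log2 fold change of 0.87. The 4 were Pdgfra, Wnt5a, Hand1 and Kdr. Wnt5a, a non-canonical WNT ligand, stood at 1.79 ± 0.221 CPM in 4OHT and 0.687 ± 0.211 CPM in vehicle cells (log2 fold change 1.20). At the unadjusted 0.05 level edgeR also had 0 of 7 lower, and DESeq2 with all libraries called 1 higher and 0 lower, limma-voom 2 and 0. The streak mesoderm genes Tbx6 and Msgn1 were not tested, with 18 and 0 reads in 4OHT and 28 and 1 reads in vehicle cells. Of 15 genes of the node, anterior mesendoderm and definitive endoderm 11 were tested, and in edgeR 7 rose and 2 fell. Their median log2 fold change was 1.17. DESeq2 with all libraries called 7 higher and 1 lower among the 15. Its 7 held Frzb, which the filter left out (238 reads in 4OHT, 12 in vehicle cells, DESeq2 adjusted p = 1.75e-05). They did not hold Foxa2, which edgeR called higher (DESeq2 adjusted p = 0.152). The edgeR and limma-voom counts cover the tested genes only, which are 7 of 16 and 11 of 15. Foxa1, a forkhead factor of endoderm, rose to 2.99 ± 0.744 CPM in 4OHT, against 0.556 ± 0.163 CPM in vehicle cells (log2 fold change 2.32, edgeR adjusted p = 2.98e-07). Sfrp5, a secreted WNT antagonist of anterior endoderm, fell (log2 fold change -1.33), and the node genes Noto, Nog and Shh were too low to test.

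**Figure D5:**
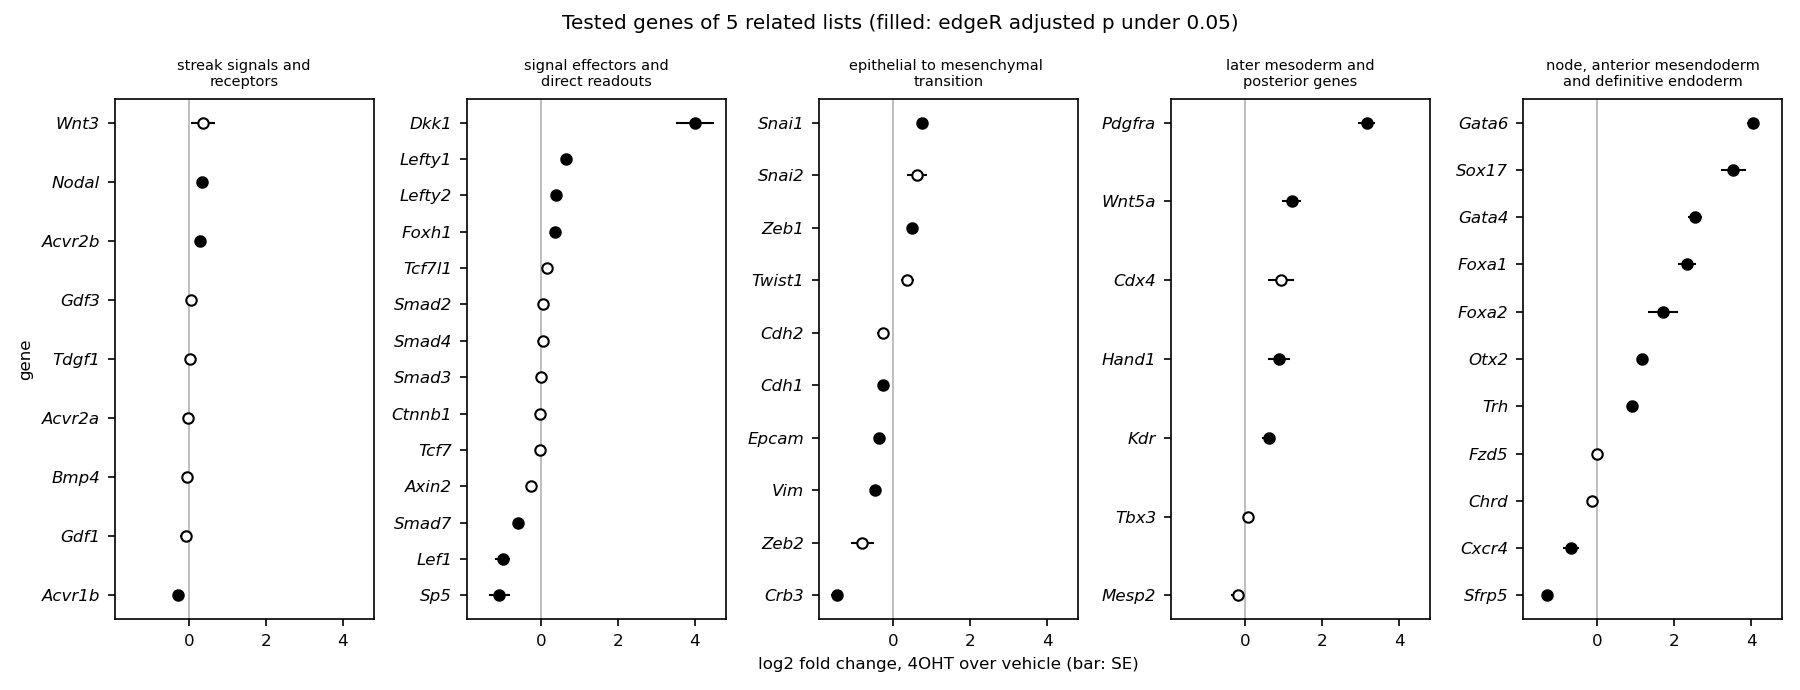
Log2 fold change of 4OHT over vehicle with its SE for the tested genes of 5 related lists, filled where the edgeR adjusted p passed. The streak signals lie near 0. The effector list runs from -1.09 (Sp5) to 4.00 (Dkk1) and the endoderm list from -1.33 (Sfrp5) to 4.05 (Gata6).

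Markers of other cell types that use the same factors were set beside these results. Of 12 tested primitive and visceral endoderm markers 10 rose and none fell in edgeR (11.9% and 10.5% over all tested genes), with 0 lower at the unadjusted 0.05 level too, and 9 higher and 0 lower in DESeq2 (8 and 0 in limma-voom). Their summed levels were 342 to 408 CPM in 4OHT and 201 to 217 CPM in vehicle libraries. This list shares Gata4, Gata6 and Sox17 with the endoderm list and Pdgfra with the mesoderm list, so these lists are not separate evidence. Of 15 listed markers Ttr had no read in any library and Afp had 3 reads, all in 4OHT cells. Of 8 tested trophoblast markers 2 rose and 4 fell (0 and 2 in DESeq2, 0 and 3 in limma-voom). Their sums were 30.5 to 35.5 CPM in 4OHT and 49.8 to 51.7 CPM in vehicle libraries. The trophoblast list shares Cdx2 and Hand1 with the mesoderm list, so the rise of Hand1 is counted in both. The part of either cell type in the values of Gsc, Hhex, Lhx1, Cer1 or Eomes was not tested.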

How the data were processed

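Polyadenylated RNA of 3 4OHT and 3 vehicle samples was made into NEBNext Ultra libraries and sequenced, per the labels' protocols. The authors deposited whole-number read counts for 23999 gene symbols, and the submitters' processing notes name STAR, DESeq and mm9 without versions. Not given in the sources used here are the counter, the annotation and whether strand was used. Groups and replicate numbers came from the sample titles.

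Testing used the quasi-likelihood procedure of edgeR 4.0.16 (R 4.3.3) with treatment as the only term, after filterByExpr (minimum count 10), which left 14458 genes, and TMM scaling. Benjamini-Hochberg adjustment ran over all of them (threshold 0.05), and SE and 95% intervals come from the F statistic. Fold changes of low genes follow the deep libraries more closely than the mean CPM does. DESeq2 1.42.0 and limma 3.58.1 served as alternatives, as did relative log expression factors, no filter, a replicate block and leaving out each library. Tested on simulated data for the 14458 genes of 4OHT against vehicle, edgeR recovered 81.1% of genes changed 1.5-fold and 97% of those changed 4-fold. The changed genes were drawn from all tested genes, with a median of 19.6 CPM. The 6 tested members lay above only 3.2% to 37.1% of tested genes, so recovery at their levels was not measured.

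The 10 genes and the related lists were chosen with earlier results of these data known. Named genes are the 10, Nanog and, in each related list, up to 4 with the smallest adjusted p or others with a stated role. Exon lengths and overlaps came from GENCODE vM21 (GRCm38), and blastn 2.17.0 found no other gene with 95% identity over at least 50% of a transcript for any of the 10. Same-numbered libraries deviated together (correlations of 0.57, 0.147 and 0.388 over 3632 genes for replicates 1 to 3), but 4OHT replicate 3 correlated more with vehicle replicate 2 (0.448) than with its own number, and no label says what the numbers mark. A pairing by number is thus possible and uneven. No 2 libraries agreed within sampling noise.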

Additional observations from a re-analysis of the deposited data

How the results depend on the processing

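The count of all called genes was 3233, and it was 939 with DESeq2 and 2088 with limma-voom and quantile normalization. Of the 10 mesendoderm genes 2 were called, against 0 with DESeq2 (none of 5 with an adjusted p; Gsc log2 fold change 1.46) and 0 with limma-voom. DESeq2 without 4OHT replicate 2, an alternative chosen after seeing the data, called 2. Of the streak signals 3 of 9 tested were called, and 1 of 8 with an adjusted p in DESeq2. Of the mesoderm and endoderm genes 13 of 18 tested were called, and 8 of 18 with limma-voom. DESeq2 called 9 of the 18 to which it gave an adjusted p. Over all genes the shares called were 22.4% in edgeR, 6.87% in DESeq2 and 14.4% in limma-voom. Leaving out each library in turn gave 2368 to 3950 genes, 2 to 3 mesendoderm genes, 2 to 4 streak signals and 11 to 14 mesoderm and endoderm genes; the third mesendoderm gene was Cdx1, without 4OHT replicate 1. With the replicate number as a block, which treats same-numbered libraries as pairs, 4073 genes, 2 mesendoderm genes, 3 streak signals and 13 mesoderm and endoderm genes were called, and it changed no call of the 10. Relative log expression factors and no filter gave 2 mesendoderm genes each. No fold change of the 6 tested mesendoderm genes changed sign under any of these alternatives. The depth of 4OHT replicate 2, and counts under about 30 per group for T, Mesp1, Lhx1 and Cer1, limit what could be detected.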
